A study of Mus musculus with 6 samples.

Results

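Type I interferon response genes are the genes that a cell switches on when interferon alpha or beta signals that a virus may be present. They were examined here in mouse CD4+ T cells activated with and without CpdA, which the series describes as an agonist of the fatty acid receptor Gpr120. The set was a fixed list of 39 gene symbols, and all 39 were found among the 21139 genes of the deposited table. They were split by role into 10 sensors of foreign nucleic acid, 12 signal transducers and regulators, and 17 antiviral effectors. The list was drawn up with earlier results of these libraries known, so the counts below describe the set and are not independent evidence about it. The genes were chosen by name with values of these libraries in view, so the contrast of CpdA with medium is treated as used in their choice, and members' fold changes and p-values are given as a description. The rule left members with too few counts untested. Of the 39 members 38 were tested, and the exception was Ifit3.

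The cells came from the spleen of C57BL/6J mice and were grown for 2 days with antibodies to CD3, part of the T cell receptor, and to the co-receptor CD28. The 3 libraries with medium alone were compared with 3 libraries with CpdA, at a dose the labels give as 20 with a unit read here as µM. All 6 libraries therefore share the stimulation. Separate mice or wells for each library are not stated in the labels, and the p-values reflect the spread among these libraries alone, which may be technical. No vehicle is named for the medium group. Library totals ran from 20247761 to 25952169 counts.

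In textbook terms, nucleic acid sensors such as the RIG-I-like receptors detect viral RNA and lead to interferon production. Secreted interferon binds the receptor chains Ifnar1 and Ifnar2, and the kinases Jak1 and Tyk2 then activate transcription factors. Stat2 and Irf9 are subunits of the complex ISGF3, which binds a sequence called the interferon-stimulated response element and switches on the responding genes. Most sensors and transducers are themselves interferon-stimulated, so the pathway feeds back on its own parts.

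The response element has a core of GAAA, any 2 bases and GAAA again. It was searched on both strands of RefSeq promoter windows (build GRCm38.p6), each running from 250 bases before the annotated start to 50 bases from it. Windows were given for 30 of the 39 members, and 15 of these (50.0%) held at least 1 match, against 3.99% of the 27025 genes with a window and 3.76% of the tested genes with one. A longer form, the core followed by CT, was found in 9 members (30.0%) and in 0.303% of all genes. The sensors held the core in 5 of 7 genes, the transducers in 3 of 9 and the effectors in 7 of 14. A match is a run of letters and not a measured binding site. The following lines give, 5′ to 3′ on the strand of the gene, the sites of members that differ in how their transcripts behaved. Capitals mark the core, or its reverse complement (TTTC, any 2 bases, TTTC), and adjoining matches run together.

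Isg15, chr4:156200870-156200901, minus strand: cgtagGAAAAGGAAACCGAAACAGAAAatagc
Bst2, chr8:71537582-71537607, minus strand: tccagGAAAATGAAACTGAAAggctg
Trim30a, chr7:104465215-104465234, minus strand: tttagTTTCTTTTTCtcagt
Trim30d, chr7:104507876-104507895, minus strand: tttagTTTCTTTTTCtcagt
Eif2ak2, chr17:78882540-78882559, minus strand: gccggGAAAACGAAAcagaa
Ifit1, chr19:34640799-34640818, plus strand: ctcagTTTCAGTTTCtcact
Stat2, chr10:128270271-128270290, plus strand: cctggTTTCAGTTTCctttc
Gbp2, chr3:142620599-142620618, plus strand: tttagTTTCACTTTCactgt
Ddx58, chr4:40239809-40239828, minus strand: ggcagTTTCGATTTCctatg
Ifih1, chr2:62646209-62646228, minus strand: gaatcGAAACAGAAAccgat

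A run of 3 overlapping matches was found at Isg15, 66 to 78 bases before the start, and 2 overlapping matches at Bst2, 124 and 130 bases before it. Ifit1 held 2 separate matches, 104 and 85 bases before its start, and only the nearer is shown. The sites shown for Trim30a and Trim30d, neighbouring genes of 1 family, were identical in all 20 bases. Transcripts of the first 7 genes in these lines rose with CpdA, that of Gbp2 fell, and those of Ddx58 and Ifih1 did not pass the test, as the values below show. Rising and falling genes were found with and without a match: of 14 tested members with a match 9 rose and 1 fell, and of 15 tested members with a window and no match 9 rose and 2 fell. One of these 2 is Samhd1, whose start in another annotation, GENCODE, lies 169 bases before the RefSeq start. Its window covered only 81 bases before the GENCODE start. For Bst2 and Isg15, the rising effectors with the highest levels per length (FPKM), the 250 bases before the start are given in full, with the same capitals, so that the core can be read in its surroundings.

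Isg15, chr4:156200819-156201068, minus strand: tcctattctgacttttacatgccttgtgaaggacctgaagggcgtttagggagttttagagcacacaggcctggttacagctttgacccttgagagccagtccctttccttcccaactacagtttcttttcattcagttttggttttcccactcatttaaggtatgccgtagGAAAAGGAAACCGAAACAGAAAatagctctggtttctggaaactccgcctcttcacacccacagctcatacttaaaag
Bst2, chr8:71537473-71537722, minus strand: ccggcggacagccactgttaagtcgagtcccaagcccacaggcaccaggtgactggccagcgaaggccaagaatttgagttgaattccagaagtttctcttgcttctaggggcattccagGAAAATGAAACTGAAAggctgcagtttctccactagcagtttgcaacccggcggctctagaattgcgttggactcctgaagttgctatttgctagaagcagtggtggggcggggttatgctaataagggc

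**Figure D1:**
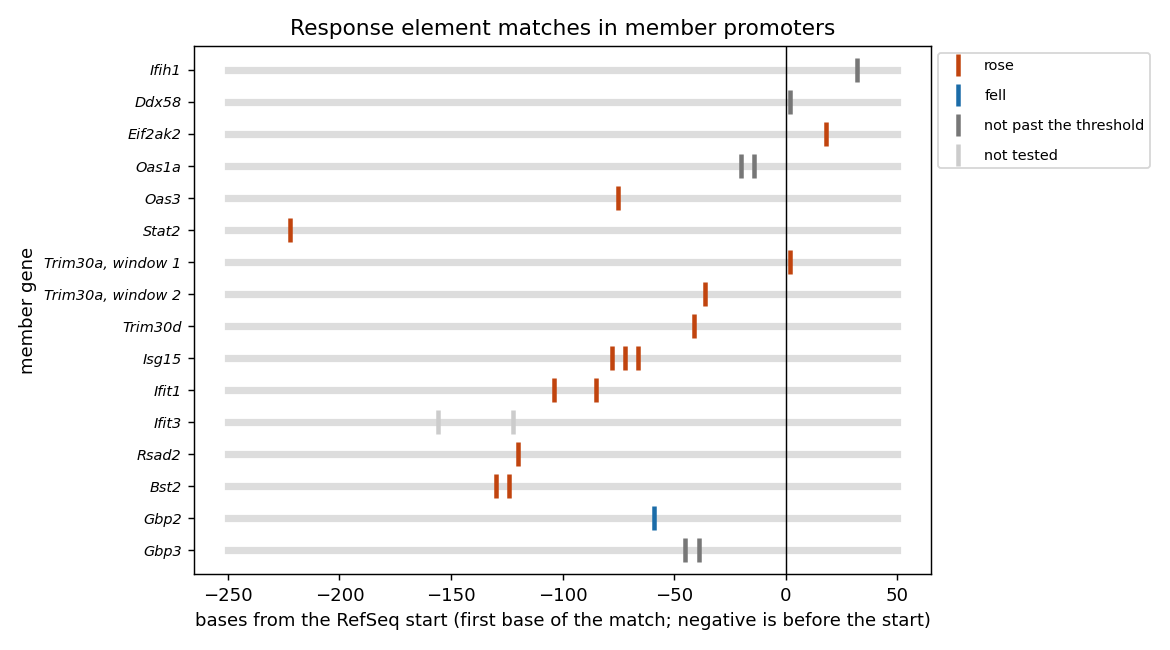
Positions of the response element core in the promoter windows of the 15 members that hold it, as bases from the RefSeq start on the x axis, 1 window per row. Each tick is the first base of a match and its colour gives the result of the test. Matches lay between 222 bases before the start (Stat2) and 32 bases after it (Ifih1), and Trim30a has a window for each of its 2 annotated starts.

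With CpdA, most of the set was modestly higher. Of 38 tested members 23 rose and 4 fell at an adjusted p under 0.05, where 16.5% of the 13507 genes tested rose and 16.7% fell, 33.2% in either direction. Since this contrast is treated as used in choosing the members, nothing is read from these shares. The rising members included Isg15, Bst2, Zbp1 and Irf7, and those that fell were Dhx58, Samhd1, Gbp2 and Ifnar1. The median log2 fold change of the 38 members was 0.27, against 0.0004 over all genes tested, and members ran from -0.53 (Dhx58) to 0.84 (Mx2). All 3 CpdA libraries lay above all 3 medium libraries in CPM for 25 tested members and below them for 4, where 22.9% and 21.0% of all tested genes did so. On the log2 scale with TMM scaling the count above was 24, since the groups of Parp9 then overlapped. Tests are edgeR's quasi-likelihood test with Benjamini-Hochberg adjustment over all genes tested. Fold changes are CpdA over medium, and levels are CPM, counts scaled to a common library total. Unless marked SD, the value after ± is a standard error worked back from the log2 fold change and the F statistic of its test. It therefore adds no measure of precision beyond the p-value. In RNA from whole cultures, a change in how many cells express a gene and a change in RNA per cell cannot be told apart.

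**Figure D2:**
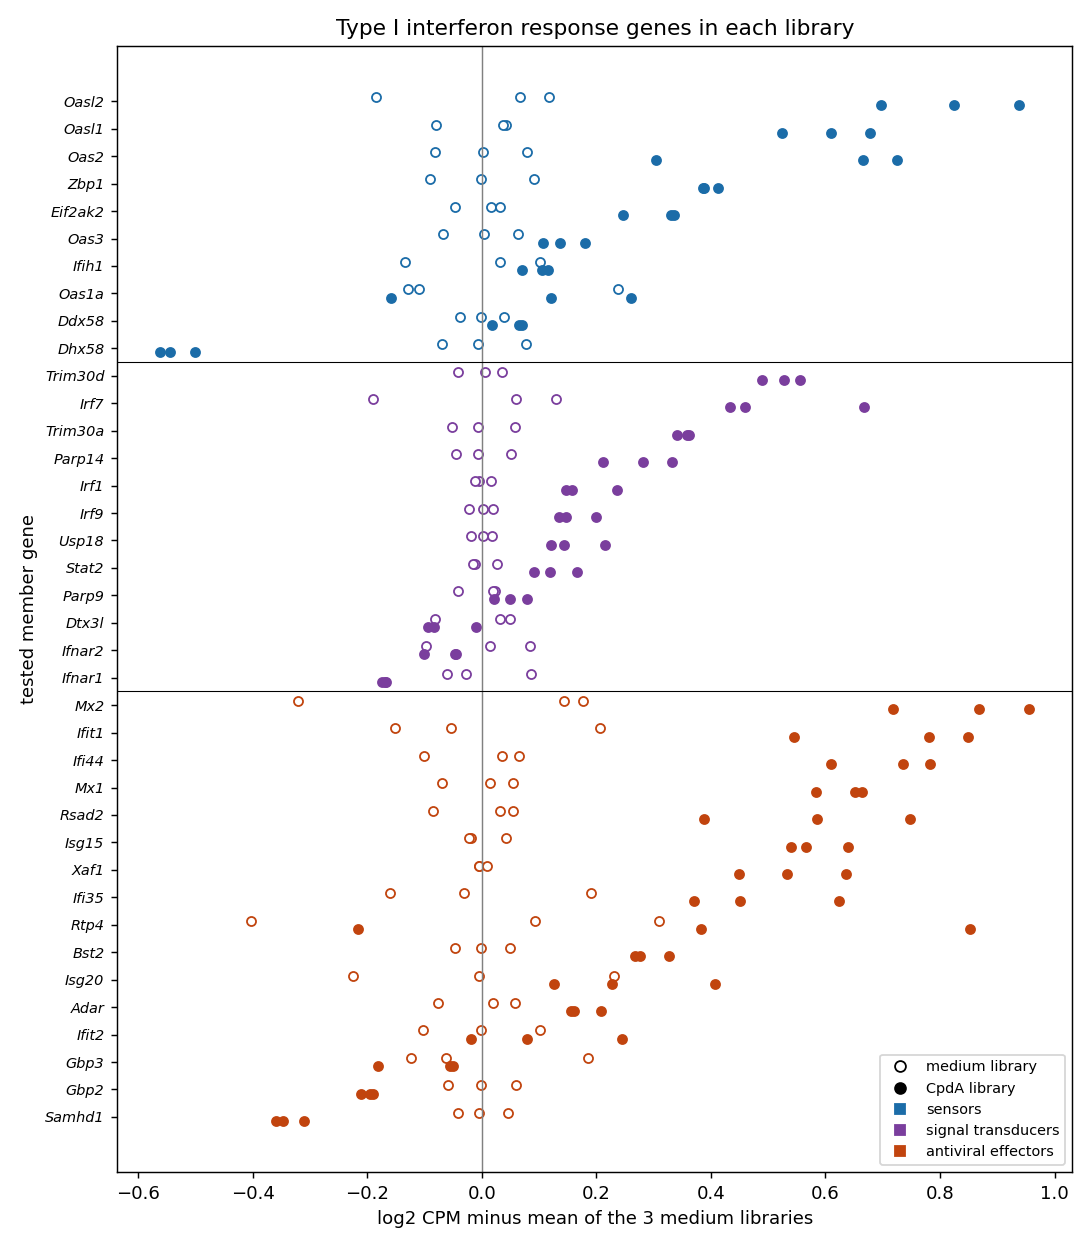
Level of each tested member in each library, as log2 CPM minus the mean of the 3 medium libraries, with open circles for medium, filled circles for CpdA and colours for the 3 roles. CpdA libraries lie to the right of all medium libraries for 24 of 38 genes on this scale and to the left for 4, which are Dhx58, Ifnar1, Gbp2 and Samhd1.

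Of 10 sensors 5 rose, 1 fell and 4 did not pass the test. Among the RIG-I-like receptors, the helicases that recognise viral double-stranded RNA in the cytosol, 1 of the 3 genes passed. Dhx58 (chromosome 11, 100694884 to 100704271, minus strand, GRCm38) encodes LGP2, which lacks the signalling domains of its relatives and modulates them. It measured 53.2, 48.0 and 50.0 CPM in the medium libraries and 34.3, 35.7 and 34.8 CPM in the CpdA libraries. Every CpdA library was below every medium library, and the log2 fold change, the lowest of the set, was -0.53 ± 0.05 at an adjusted p of 1.2e-10. Ddx58, which encodes RIG-I, measured 40.5, 41.7 and 39.4 CPM in the medium libraries and 42.7, 41.2 and 43.0 CPM in the CpdA libraries. Its libraries overlapped, with a log2 fold change of 0.05 ± 0.05 at an adjusted p of 0.505. Ifih1, which encodes MDA5, measured 31.0, 36.5 and 34.6 CPM in the medium libraries and 36.8, 35.8 and 37.1 CPM in the CpdA libraries. These overlapped too, with a log2 fold change of 0.09 ± 0.06 at an adjusted p of 0.252. An antisense transcript of Dhx58 that overlaps it by 2637 bases had 0.383 CPM in medium and 0.252 CPM with CpdA, far under the level of Dhx58 itself.

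Zbp1, a sensor of left-handed nucleic acid that can trigger cell death, measured 40.9, 38.5 and 43.5 CPM in the medium libraries and 53.8, 53.7 and 55.0 CPM in the CpdA libraries. The groups did not overlap, and the log2 fold change was 0.39 ± 0.05 at an adjusted p of 6.3e-08. Eif2ak2, which encodes the kinase PKR that stops translation when it binds double-stranded RNA, measured 57.6, 60.1 and 60.6 CPM in the medium libraries and 75.3, 75.3 and 71.2 CPM in the CpdA libraries. Its groups were again apart, with a log2 fold change of 0.30 ± 0.04 at an adjusted p of 7.4e-07.

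The oligoadenylate synthetase family, on chromosome 5, senses double-stranded RNA, and most of its enzymes make a messenger that activates RNase L. Both Oas-like genes rose. Oasl1, which restrains translation of Irf7, measured 10.3, 10.3 and 9.45 CPM in the medium libraries and 15.4, 14.5 and 16.2 CPM in the CpdA libraries, and the log2 fold change was 0.61 ± 0.09 at an adjusted p of 6.9e-07. Oasl2 measured 2.86, 3.43 and 3.54 CPM in the medium libraries and 5.89, 6.36 and 5.40 CPM in the CpdA libraries, with a log2 fold change of 0.83 ± 0.15 at an adjusted p of 1.7e-05. In both genes every CpdA library was above every medium library. Oas3, the most abundant of the family per length at 22.1 FPKM (counts scaled to gene length and library total) in medium, measured 99.8, 109 and 104 CPM in the medium libraries and 113, 115 and 119.5 CPM in the CpdA libraries. This was a small shift without overlap, with a log2 fold change of 0.14 ± 0.04 at an adjusted p of 0.0038. Oas2 was scarce, at 1.03 ± 0.06 CPM without and 1.59 ± 0.25 CPM under CpdA (SD, n = 3), and its groups did not overlap, with a log2 fold change of 0.61 ± 0.27 at an adjusted p of 0.0858. Oas1a had 5.44 ± 0.82 and 5.77 ± 0.85 CPM (SD, n = 3) and a log2 fold change of 0.08 ± 0.14 at an adjusted p of 0.713. Reads of Oas1a may be shared with its close copies in the Oas1 cluster.

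Of the 12 signal transducers and regulators 8 rose, 1 fell and 3 did not pass. Ifnar1 (chromosome 16, 91485238 to 91507441, plus strand, GRCm38), the signalling chain that binds Tyk2, measured 92.9, 83.9 and 85.6 CPM in the medium libraries and 78.4, 78.0 and 78.2 CPM in the CpdA libraries. The CpdA libraries were all lower, and the log2 fold change was -0.17 ± 0.04 at an adjusted p of 0.00153. Ifnar2, the high-affinity chain that binds Jak1, measured 26.3, 27.6 and 24.3 CPM in the medium libraries and 25.4, 24.4 and 25.5 CPM in the CpdA libraries. Its groups overlapped and the log2 fold change was -0.07 ± 0.07 at an adjusted p of 0.465. Compared per length, Ifnar1 was the more abundant chain, at 22.4 FPKM against 8.56 FPKM for Ifnar2 in medium.

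Both ISGF3 subunits in the set rose. Stat2 measured 117, 119.8 and 116 CPM in the medium libraries and 128, 132 and 126 CPM in the CpdA libraries, a log2 fold change of 0.13 ± 0.04 at an adjusted p of 0.00503. Irf9, the DNA-binding subunit, measured 53.0, 52.1 and 53.4 CPM in the medium libraries and 58.4, 58.7 and 61.3 CPM in the CpdA libraries, a log2 fold change of 0.16 ± 0.05 at an adjusted p of 0.00568. Neither gene's groups overlapped. Irf9 shares 123 bases with the gene Rnf31 in the deposited coordinates, and Rnf31 fell, with a log2 fold change of -0.14.

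Among the interferon regulatory factors, Irf7, which amplifies transcription of interferon alpha genes, had the larger shift. Irf7 measured 11.2, 13.3 and 14.0 CPM in the medium libraries and 20.5, 17.3 and 17.8 CPM in the CpdA libraries. The CpdA libraries were all higher, with a log2 fold change of 0.51 ± 0.09 at an adjusted p of 1.2e-05. Irf1, which also responds to interferon gamma, measured 88.6, 87.3 and 86.6 CPM in the medium libraries and 104, 98.0 and 97.8 CPM in the CpdA libraries, and the log2 fold change was 0.18 ± 0.04 at an adjusted p of 0.00034. Its groups were apart but close.

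The Trim30 genes, of which Trim30a is a brake on Toll-like receptor signalling to NF-kB, both rose, with every CpdA library above every medium library. Trim30a measured 149, 154 and 160.1 CPM in the medium libraries and 196, 198 and 199.9 CPM in the CpdA libraries, a log2 fold change of 0.35 ± 0.03 at an adjusted p of 3.0e-11. Trim30d measured 34.1, 33.4 and 32.2 CPM in the medium libraries and 48.3, 49.1 and 47.2 CPM in the CpdA libraries, a log2 fold change of 0.53 ± 0.05 at an adjusted p of 1.6e-10. The members of this family are close copies, and reads may have been divided between them in ways that cannot be checked here. Overlapping Trim30d by 1095 bases on the same strand is the pseudogene Gm16464, with 0.379 CPM in medium and 0.912 CPM with CpdA.

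Members of the ADP-ribosylation branch lie close together on chromosome 16, and 1 of the 3 passed the test. Parp14, an ADP-ribosyltransferase, measured 78.4, 83.8 and 80.2 CPM in the medium libraries and 94.2, 98.5 and 103 CPM in the CpdA libraries, a log2 fold change of 0.28 ± 0.04 at an adjusted p of 9.9e-07. Parp9 and Dtx3l, whose products form a complex with ubiquitin ligase activity, had log2 fold changes of 0.05 ± 0.04 at an adjusted p of 0.372 and -0.06 ± 0.04 at an adjusted p of 0.23. Parp9 and Dtx3l lie on opposite strands and overlap by 682 bases, so their reads cannot be told apart there if the counting took no account of strand. Usp18, which removes Isg15 from proteins and dampens the receptor, went from 40.7 ± 0.5 to 45.8 ± 1.7 CPM (SD, n = 3), with a fitted log2 change of 0.16 ± 0.05 at an adjusted p of 0.0135. The call of Usp18 was lost when CpdA replicate 3 was left out (0.13, edgeR adjusted p = 0.0939).

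Among the effectors 10 of 16 tested members rose, 2 fell and 4 did not pass. Isg15 (chromosome 4, 156199424 to 156200818, minus strand, GRCm38) encodes a ubiquitin-like protein that is attached to other proteins during infection. It measured 32.9, 34.3 and 32.8 CPM in the medium libraries and 49.7, 52.2 and 49.0 CPM in the CpdA libraries. The lowest CpdA library was well above the highest medium library, and the log2 fold change was 0.58 ± 0.05 at an adjusted p of 1.3e-11, about 1.5-fold. Bst2, or tetherin, which holds budding virus at the cell surface, measured 97.7, 104 and 100.5 CPM in the medium libraries and 127, 122 and 123 CPM in the CpdA libraries, a log2 fold change of 0.29 ± 0.04 at an adjusted p of 5.1e-08. Per length it was the most abundant rising member, at 132 FPKM in medium and 163 FPKM with CpdA.

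Xaf1, a partner of the apoptosis inhibitor XIAP, measured 12.8, 12.8 and 12.9 CPM in the medium libraries and 18.7, 17.6 and 20.2 CPM in the CpdA libraries. Its medium libraries were almost identical and the log2 fold change was 0.54 ± 0.08 at an adjusted p of 9.2e-07. Ifi35, an interferon-induced leucine zipper protein, measured 16.1, 20.5 and 17.5 CPM in the medium libraries and 27.8, 23.3 and 24.8 CPM in the CpdA libraries. The groups were apart although both spread more widely than those of Xaf1, and the log2 fold change was 0.47 ± 0.08 at an adjusted p of 1.1e-05. Adar, the enzyme that edits adenosine to inosine in double-stranded RNA, rose from 126 ± 6 to 143 ± 3 CPM (SD, n = 3), with a fitted log2 change of 0.17 ± 0.04 at an adjusted p of 0.000198.

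Another 5 classical antiviral genes rose from very low levels, each under 5 CPM in medium. Mx2, listed as a polymorphic pseudogene, went from 3.32 ± 0.61 to 6.03 ± 0.49 CPM (SD, n = 3), with a fitted log2 change of 0.84 ± 0.15 at an adjusted p of 1.9e-05. Mx1, a dynamin-like GTPase that blocks influenza virus and is truncated in most inbred mouse strains, went from 2.49 ± 0.11 to 3.93 ± 0.11 CPM (SD, n = 3), with a fitted log2 change of 0.65 ± 0.17 at an adjusted p of 0.00236. Ifit1, which binds viral RNA lacking a host cap, went from 4.42 ± 0.60 to 7.40 ± 0.82 CPM (SD, n = 3), with a fitted log2 change of 0.74 ± 0.13 at an adjusted p of 2.4e-05. Ifi44 had a log2 fold change of 0.72 ± 0.15 at an adjusted p of 0.000284, and Rsad2, or viperin, which makes a chain-terminating nucleotide, of 0.59 ± 0.17 at an adjusted p of 0.00653. None of the 5 had overlapping groups.

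Samhd1 (chromosome 2, 157097533 to 157135265, minus strand, GRCm38) fell. Its product destroys the nucleotides that viruses need for reverse transcription, and it was the most abundant member per length, at 291 FPKM in medium and 232 FPKM with CpdA. It measured 1183, 1112 and 1137 CPM in the medium libraries and 906, 925 and 900.4 CPM in the CpdA libraries. All CpdA libraries were lower, with a log2 fold change of -0.34 ± 0.03 at an adjusted p of 3.9e-13, and this p was the smallest of the set. Gbp2, a guanylate-binding GTPase that interferon gamma also induces strongly, measured 242, 263 and 251 CPM in the medium libraries and 222, 222 and 220.1 CPM in the CpdA libraries. It fell as well, without overlap, by a log2 fold change of -0.20 ± 0.03 at an adjusted p of 2.9e-06. Gbp3 had 18.9 ± 2.2 and 17.7 ± 0.9 CPM (SD, n = 3) and did not pass, with a log2 fold change of -0.10 ± 0.08 at an adjusted p of 0.36. In the deposited coordinates all 13158 bases of Gbp3 lie within the span of Gbp5, which fell, so their reads may be shared.

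The remaining effectors did not pass the test. Ifit2, a relative of Ifit1, had a log2 fold change of 0.11 ± 0.09 at an adjusted p of 0.391, and Isg20, an RNA exonuclease, of 0.26 ± 0.12 at an adjusted p of 0.107. Without medium replicate 1 the change of Isg20 was 0.38 and passed (edgeR adjusted p = 0.0325). Rtp4, a chaperone induced by interferon, was at 0.562 ± 0.155 and 0.760 ± 0.305 CPM (SD, n = 3), with a log2 fold change of 0.40 ± 0.39 at an adjusted p of 0.462. Ifit3 had counts of 3, 4 and 7 in the medium libraries and 14, 8 and 12 in the CpdA libraries, too few for the test, and a difference was not assessed at this depth.

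**Figure D3:**
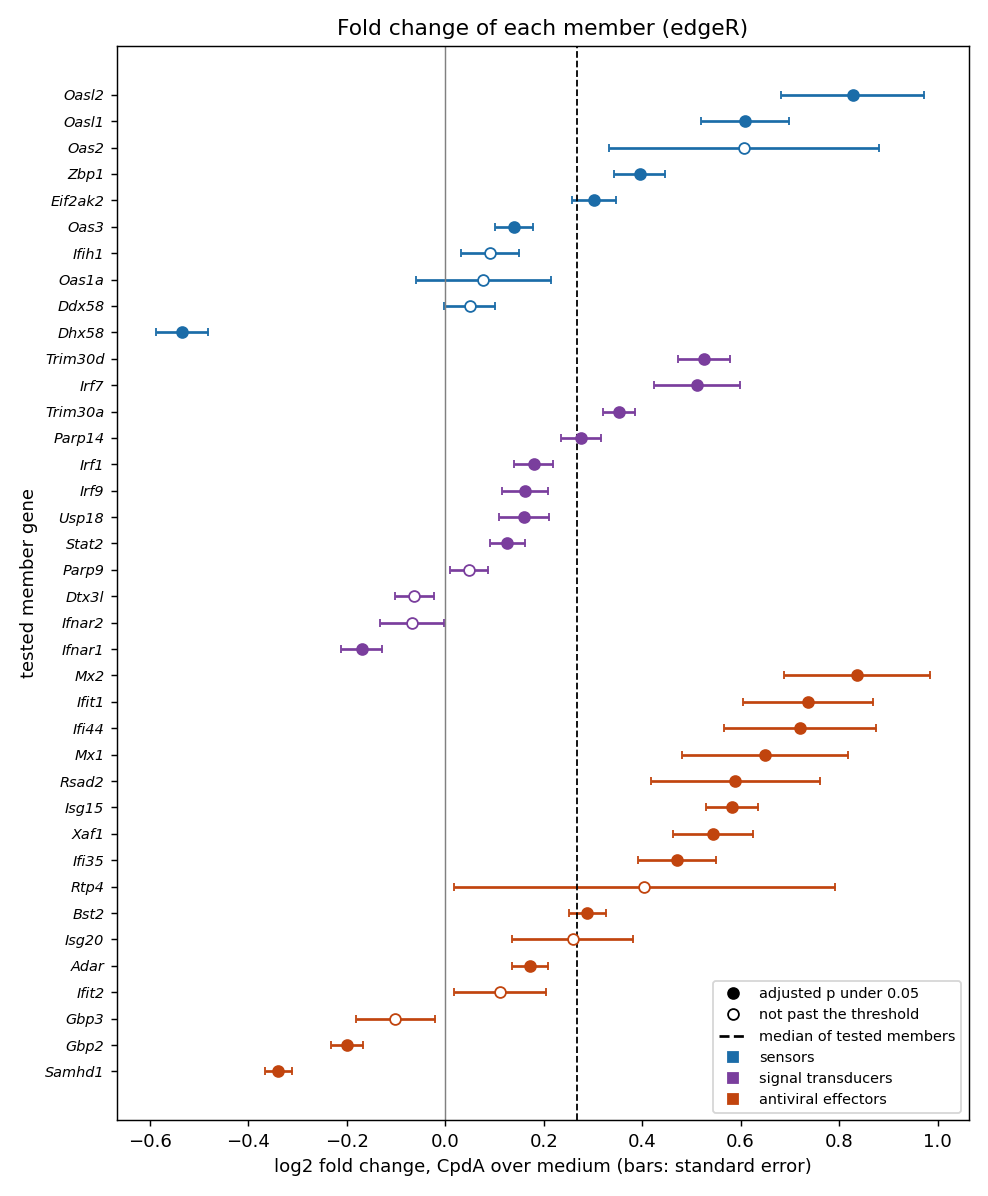
Log2 fold change of CpdA over medium with its standard error for the 38 tested members, ordered within each role, with filled circles for an adjusted p under 0.05 and a dashed line at their median of 0.27. Effectors have the highest median of the roles, 0.44, beside 0.22 for sensors and 0.16 for transducers.

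Members with low levels had the larger fold changes. Across the 38 tested members, the log2 fold change and log2 mean FPKM had a Pearson r of -0.57 and a Spearman rho of -0.54. Over all 13507 genes tested the same relation was 0.15 and 0.13. These are correlations across genes of the same 6 libraries, with no replication, and fold changes of low genes also carry the larger errors. The 5 tested members under 1 FPKM had a median log2 fold change of 0.61, and 3 rose. The 12 from 1 to 10 FPKM had a median of 0.38, and 6 rose. The 21 at 10 FPKM or more had a median of 0.16, with 14 higher and 4 lower. For comparison, of all tested genes at 10 FPKM or more 27.3% rose and 20.7% fell. Of those from 1 to 10 FPKM 10.6% rose and 15.9% fell, and of those under 1 FPKM 2.99% rose and 8.44% fell. All 4 members that fell were in the most abundant band.

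**Figure D4:**
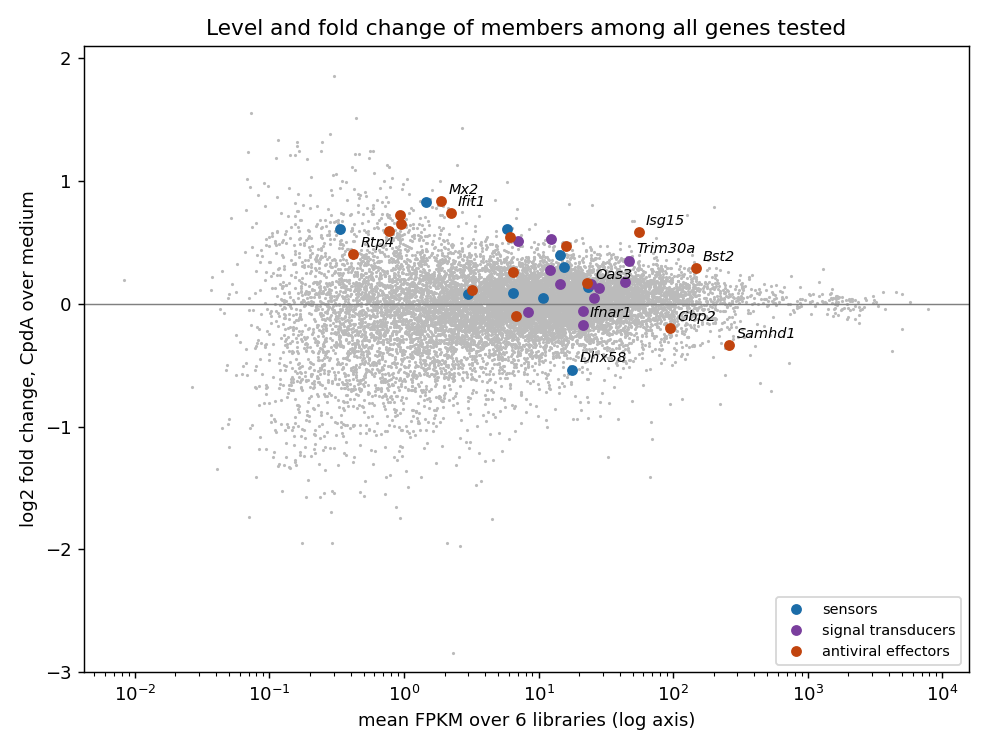
Mean FPKM over the 6 libraries (log axis) against the log2 fold change of CpdA over medium, with all 13507 tested genes in grey and members coloured by role. Mx2 and Ifit1, at a mean under 3 FPKM, sit at 0.84 and 0.74, while Samhd1, Gbp2, Ifnar1 and Dhx58 sit below 0.

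Within a group the median spread of the members between libraries was no larger than that of all genes tested. Their median SD of log2 CPM was 0.070 in medium and 0.049 with CpdA, against 0.077 and 0.075 over all genes tested. Members and all genes were not matched for level in this comparison. Medium replicate 1 held the lowest medium value for 18 of 38 members. CpdA replicate 3 held the highest CpdA value for 17 but also the lowest for 14, as did CpdA replicate 2 for another 14. Such counts were not made over all genes, so nothing is read from them. The median deviation of the members from their group mean was at most 0.025 on the log2 scale in any library, beside their median fold change of 0.27.

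Type I interferon genes themselves were hardly detected. Of 21 ligand genes looked for, 9 were in the table, and Ifng alone was tested. Ifnb1, the interferon beta gene, had counts of 1, 2 and 0 in medium and 3, 1 and 1 with CpdA. The 6 listed type I genes summed to 17 counts over the medium libraries, or 0.255 CPM with an exact 95% Poisson interval from 0.148 to 0.408, and to 11 counts with CpdA, or 0.152 CPM from 0.0757 to 0.271. These intervals overlap, but they cover counting error only, on counts pooled over the libraries of a group. A difference between the groups was not tested. Ifng, the type II interferon gene, measured 39.4, 39.7 and 41.3 CPM in the medium libraries and 35.0, 35.8 and 32.4 CPM in the CpdA libraries, a log2 fold change of -0.23 ± 0.06 at an adjusted p of 0.00106.

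In the receptor signalling list 0 of 17 tested genes rose and 6 fell. Over all genes tested 16.5% rose and 16.7% fell, and these shares stand beside the counts of this list and those below. The lists were also chosen with earlier results known, so nothing is read from their counts. The kinase genes Jak1 and Tyk2 had log2 fold changes of -0.07 ± 0.03 at an adjusted p of 0.0553 and -0.10 ± 0.04 at an adjusted p of 0.0761. Socs1, a feedback inhibitor of these kinases, had 0.07 ± 0.03 at an adjusted p of 0.0988. The genes that fell with the smallest p were Irf8, a factor of myeloid and lymphoid cells, at -0.50, Stat3 at -0.31, the phosphatase gene Ptpn6 at -0.27, the interferon gamma receptor gene Ifngr1 at -0.32 and Socs3 at -0.16. At an unadjusted p under 0.05 the count of rising genes in this list was 3, and at an adjusted p under 0.05 it was 0 with DESeq2 and 0 with limma-voom.

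Of 17 tested genes of the pathways that lead to interferon 6 rose and 2 fell. Among them Irf3, the factor that starts interferon beta transcription, rose by 0.21, the adaptor gene Myd88 by 0.28, and Tmem173, which encodes STING, by 0.14, while the kinase gene Ikbke fell by 0.19 on the log2 scale. Mavs, the adaptor of RIG-I and MDA5, had -0.11 ± 0.06 at an adjusted p of 0.191, and Mb21d1, which encodes the DNA sensor cGAS, had 0.10 ± 0.08 at an adjusted p of 0.339. Ifi204, another DNA sensor, had counts of 11, 6 and 2 in medium and 29, 26 and 21 with CpdA, a log2 fold change of 1.85 ± 0.43 at an adjusted p of 0.000823. Ifi204 met the count filter only through its CpdA libraries, where it was higher, so its p gives no independent support for a change. The same holds for Tlr9, another of the 6 that rose, with counts of 5, 2 and 8 in medium and 12, 15 and 15 with CpdA.

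Of 20 tested GTPases and regulators best known as interferon gamma targets 13 rose and 1 fell, with a median log2 fold change of 0.29. The genes with the smallest p were Nlrc5, a regulator of MHC class I genes, at 0.35, the immunity-related GTPase genes Irgm1, Ifi47 and Tgtp1 at 0.40, 0.36 and 0.49, and the guanylate-binding gene Gbp4 at 0.33. Tgtp1 measured 24.4, 26.6 and 25.8 CPM in the medium libraries and 35.7, 38.1 and 34.7 CPM in the CpdA libraries, and its reads may be shared with its copy Tgtp2. Nlrc5 measured 92.0, 92.0 and 88.4 CPM in the medium libraries and 117, 117 and 116 CPM in the CpdA libraries, without overlap between groups. The gene that fell was Gbp5, the neighbour of Gbp2 and Gbp3, at -0.28; it was named after its value was seen. Of 46 other tested interferon-stimulated genes 21 rose and 2 fell, with a median of 0.19. Herc6, a ligase of the Isg15 pathway, rose by 0.48, Slfn9 by 0.40, Lgals3bp by 0.29 and the helicase gene Helz2 by 0.20, while Ifitm2, a membrane protein that blocks virus entry, changed by -0.48.

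**Figure D5:**
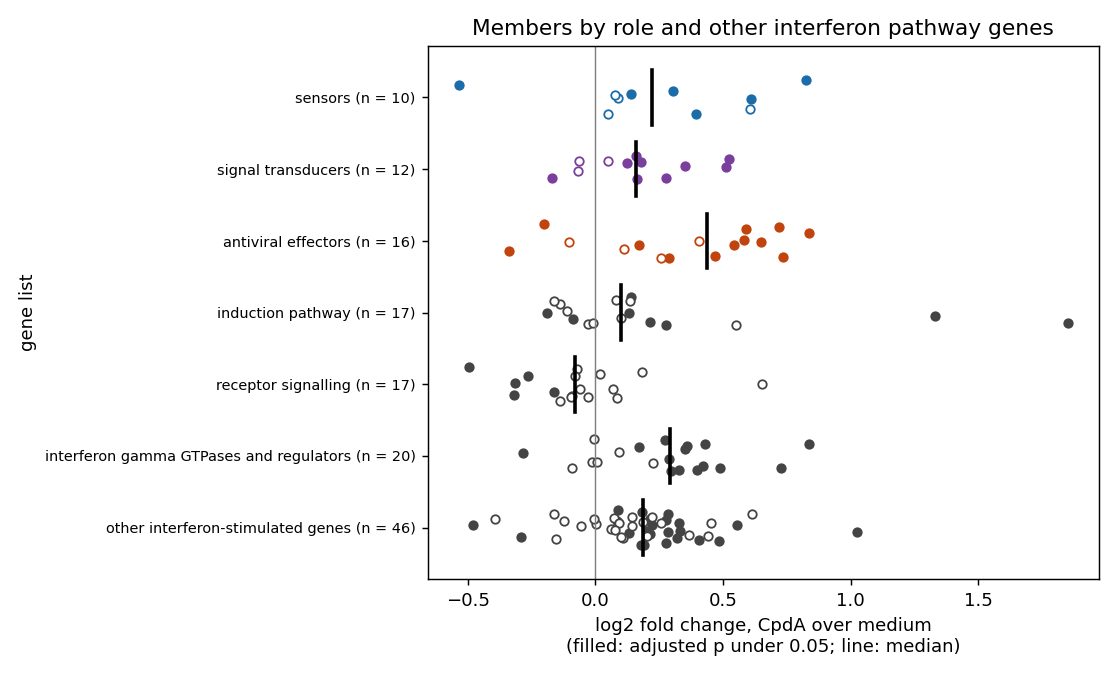
Log2 fold changes of the tested members by role (coloured) and of the other interferon pathway lists (dark), with filled circles for an adjusted p under 0.05 and a line at each median. Medians are 0.22, 0.16 and 0.44 for the roles, 0.10 for the induction pathway, -0.08 for receptor signalling, 0.29 for the interferon gamma list and 0.19 for other interferon-stimulated genes.

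All 7 markers of the labelled CD4+ T cells were present and summed to 2285 to 2326 CPM in medium and 2205 to 2243 CPM with CpdA, where Cd5 rose and 5 others fell. Plasmacytoid dendritic cells are a main source of type I interferon. Their defining marker Siglech had 1 count over the medium libraries and 2 over the CpdA libraries, and their 7 markers summed to 49.7 to 53.7 CPM in medium and 37.5 to 42.5 CPM with CpdA, mostly Runx2, Tcf4 and Pacsin1, which other cells also express. Runx2 and Tcf4 fell, with log2 fold changes of -0.67 and -0.29, and Cox6a2, at 0.73 and an adjusted p of 0.0578, did not pass. Macrophage markers (6 of 7 listed) summed to 5.33 to 6.21 and 4.43 to 4.67 CPM, with Csf1r at 6 and 8 counts over the groups. Cd68 and Itgam fell, with log2 fold changes of -0.38 and -1.18 at adjusted p of 0.0385 and 0.0424. Itgam was scarce, at 42 and 20 counts, and met the count filter only through its medium libraries. Conventional dendritic cell markers (5 of 6 listed) summed to 6.12 to 6.67 and 6.82 to 8.22 CPM. Among them Flt3 averaged 2.22 and 2.60 CPM, Itgax 0.688 and 0.818 and Zbtb46 3.29 and 3.90, and none passed the test. Clec9a, at 3 and 0 counts, and Xcr1, at 12 and 7, were too scarce to test. B cell markers (5 of 5) summed to 24.6 to 30.1 and 25.8 to 30.5 CPM, CD8 T cell markers (2 of 2) to 7.99 to 8.84 and 7.33 to 9.40 CPM, NK cell markers (4 of 4) to 0.35 to 0.54 and 0.09 to 0.23 CPM, and neutrophil markers (2 of 5 listed) to 5.47 to 6.67 and 4.59 to 5.63 CPM. Ms4a1 was the only B cell marker that passed, with a log2 fold change of 0.54 at an adjusted p of 0.0349. The groups did not overlap for the CD4 T cell, plasmacytoid dendritic cell, macrophage, conventional dendritic cell and NK cell sums, and the part of these cells in the results was not tested.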

How the data were processed

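RNA was measured in 6 libraries, 3 per group, grouped by the labels alone. The authors deposited 1 table with raw read counts per gene and library, per the file headers. Beside them stand FPKM values deposited by the authors, which equal count over gene length and library total to a relative 1.86e-07. CASAVA 1.8, GRCm38 and mm10 are listed, per the submitters' processing notes. The aligner, counter, annotation and strand setting were not stated in the labels or headers.

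The deposited counts were tested in R 4.3.3 with the quasi-likelihood test of edgeR 4.0.16 (TMM scaling, robust, no covariates) after filterByExpr (minimum count 10, minimum total 15), which kept 13507 genes. Benjamini-Hochberg adjustment covered those genes, at a threshold of 0.05. CPM divides by the library total, and log2 CPM by library uses TMM scaling and a prior count of 2. In the shallowest library 0.148 CPM (3 counts) could go unseen, by counting error only. Of these steps only the edgeR test was tried on simulated counts, and recovery was required there only for fold changes of at least 2. All tested members changed by less than that, so the requirement did not cover changes of their size. Every member is given. Library values are printed for up to 6 changed members per role by smallest p and for Ifnar1, Ifnar2, Stat2, Irf9, Irf7, Isg15, and for Ddx58 and Ifih1, which were added after their values were seen. Other lists give up to 5 changed genes by smallest p and a fixed set. The members and lists were chosen with earlier results of these data known. Promoters come from RefSeq and matched by symbol. Proteins were not used here, and the values of 1 gene of the fixed set are not reported here. Alternatives were other scalings, DESeq2 1.42.0, limma-voom (limma 3.58.1), other count filters, the replicate number as a block and leaving out each library.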

Additional observations from a re-analysis of the deposited data

How the results depend on the processing

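The number of members that changed was 27 in the main analysis and 27 with size factors of DESeq2 type, with library size alone, with DESeq2, with limma-voom and without a count filter, where DESeq2 gave no adjusted p for 1 member. Under a filter of 5 CPM in at least 3 libraries it was 24 of the 33 members still tested, and the median log2 fold change of members went from 0.27 to 0.16 because the lowest genes left. Of the 24, Oasl2, Mx2 and Ifit1 met this filter only with the help of their CpdA libraries, where they were higher. Their calls under it are therefore no independent check. Leaving out 1 library gave 26 to 28. Of the 27 changed members 26 kept their direction and call under every alternative that tested them. The exception was Usp18, which missed the threshold without CpdA replicate 3. Oas1a, not called, had log2 fold changes from -0.019 to 0.22 with 1 library left out. The number of all genes changed ranged from 3648 with DESeq2 to 4538 with library size alone, beside 4483. With the replicate number as a block 27 members changed, and of all genes changed the number was 3936. Same-numbered libraries did not deviate together (correlations from -0.021 to -0.0006), so the numbers are not taken to pair the libraries. Jak1 and Tyk2 passed with the stricter count filter (adjusted p = 0.0200 and 0.0403, edgeR), and Socs1 passed without medium replicate 2 or without CpdA replicate 1 (adjusted p = 0.0354 and 0.0313). With the longer motif 9 rather than 15 member promoters held a response element. Depth limits Ifit3, Rtp4, Oas2 and the interferon genes.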

Other observations

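Beyond the interferon lists, 311 tested genes held the response element core in a promoter window, and 63 of them (20.3%) rose and 59 (19.0%) fell. Of 9087 tested genes with a window and no match, 17.6% rose and 17.5% fell. The other element searched, TTCNNNGAA, the core of the gamma activated sequence, was found in 11 of the 30 member promoters (36.7%), in 7 of 11 promoters of the interferon gamma list (63.6%) and in 9.55% of all genes with a window. Among the guanylate-binding genes of the chromosome 3 cluster, Gbp2 and Gbp5 fell, with log2 fold changes of -0.20 and -0.28, and Gbp3 and Gbp7 did not pass (-0.10 and -0.01). In the chromosome 5 cluster Gbp4, Gbp6 and Gbp9 rose by 0.33, 0.29 and 0.30, while Gbp8 had -0.01 and Gbp11 -0.09. These genes are close copies, so reads may be shared within each cluster, and they were picked out after their values were seen. The antisense transcript Gm15564, opposite Parp9, overlaps it by 5854 bases and fell, with 4.33 CPM in medium, 3.08 CPM with CpdA and a log2 fold change of -0.49.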
